A study of Mus musculus with 4 samples.

Results

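Csprs and 4 genes of the Sp100 family (C130026I21Rik, Sp100, Sp110 and Sp140) were followed in Ly6C-hi (classical) monocytes of bone marrow, in C57BL/6 mice that were either young or old. These 5 genes were taken by name from the 27998 gene rows of the expression matrices, and each was found in both pools. They were selected on the age contrast of these same data, in UMIs per mouse and in detection per cell. The RNA levels of Csprs and C130026I21Rik were much higher in old mice there, so differences between young and old mice are given as a description, with no test. Monocytes (Ly6G-, CD11b+, CD115+ and Ly6C-hi) were sorted from 5 young and 5 old males in one experiment and from 5 young and 5 old females in another. Each mouse carried its own oligonucleotide-tagged antibody (hashtag), and the 10 mice of each sex were loaded as 1 pool for droplet scRNAseq. All animals were wild type and bought from one vendor. Young males were 14 weeks old and old males 27 months, and the corresponding female ages were 15 weeks and 26.5 months. Because the sexes were handled in separate experiments, sex and experiment cannot be told apart.

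The Sp100 family encodes nuclear proteins that bind chromatin. Sp100 is a building block of PML nuclear bodies, the protein clusters that store chromatin regulators and restrain viral genomes. Sp140 also carries domains that read histone tails, and it affects resistance to intracellular bacteria in mice, where it restrains type I interferon production. Interferons induce Sp100, Sp110 and Sp140 in leukocytes. Csprs ("component of Sp100-rs") lies in a mouse-specific region in which copies derived from Sp100 and from a neighbouring gene were joined and multiplied. C130026I21Rik is a predicted protein-coding relative of these genes, with no established function.

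In the GRCm38 annotation, 4 of the 5 genes lay within a short interval of chromosome 1. C130026I21Rik (ENSMUSG00000052477) covered 84992690 to 85270566 on the minus strand. Sp110 (ENSMUSG00000070034) covered 85576899 to 85598817 on the minus strand, Sp140 (ENSMUSG00000070031) 85600378 to 85645037 on the plus strand and Sp100 (ENSMUSG00000026222) 85649988 to 85709998 on the plus strand. Csprs (ENSMUSG00000062783) was annotated outside the assembled chromosomes, on an unlocalized scaffold, from 111572 to 163011 on its minus strand. A pair of further genes with UMIs, which are not members, entered the description because they overlap C130026I21Rik: A530032D15Rik (ENSMUSG00000089844, 85083069 to 85109853, minus strand) lay wholly inside its span on the same strand, and the antisense transcript A530040E14Rik (ENSMUSG00000072109, 85105946 to 85114035) lay opposite.

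The start regions are printed because they divide the interval into alike and unlike genes. They are RefSeq promoters of the GRCm38.p6 build, from 250 bases before to 50 bases after the start, read 5′ to 3′ on the gene's own strand. A promoter was found for 4 of the 5 members, and Csprs was not matched. In the first 3 sequences, capitals mark a run of 146 bases that was identical in C130026I21Rik (chr1:85270517-85270816, minus strand), A530032D15Rik (chr1:85109804-85110103, minus strand) and Sp140 (chr1:85600453-85600752, plus strand).
C130026I21Rik: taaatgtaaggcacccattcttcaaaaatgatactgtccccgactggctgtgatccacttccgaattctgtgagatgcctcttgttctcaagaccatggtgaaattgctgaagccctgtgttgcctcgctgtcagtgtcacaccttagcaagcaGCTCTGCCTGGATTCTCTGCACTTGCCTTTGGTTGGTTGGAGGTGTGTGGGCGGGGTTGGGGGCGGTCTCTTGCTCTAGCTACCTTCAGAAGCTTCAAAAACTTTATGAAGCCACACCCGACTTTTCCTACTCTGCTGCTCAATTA
A530032D15Rik: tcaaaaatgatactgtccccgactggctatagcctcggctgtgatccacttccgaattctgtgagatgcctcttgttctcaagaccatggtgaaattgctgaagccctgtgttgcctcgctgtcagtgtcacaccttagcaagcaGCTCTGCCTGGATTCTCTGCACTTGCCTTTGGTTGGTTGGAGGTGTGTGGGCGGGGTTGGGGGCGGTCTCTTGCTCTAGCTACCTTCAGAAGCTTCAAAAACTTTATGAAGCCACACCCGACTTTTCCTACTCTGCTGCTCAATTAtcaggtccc
Sp140: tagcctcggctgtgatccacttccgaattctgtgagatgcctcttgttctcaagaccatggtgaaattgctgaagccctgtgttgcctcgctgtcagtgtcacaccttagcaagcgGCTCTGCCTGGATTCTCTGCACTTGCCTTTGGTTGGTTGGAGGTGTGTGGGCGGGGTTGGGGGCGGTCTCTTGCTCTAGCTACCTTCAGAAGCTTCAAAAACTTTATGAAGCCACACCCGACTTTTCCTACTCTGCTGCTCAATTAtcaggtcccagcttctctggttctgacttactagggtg
Of 32851 promoters searched on both strands, 3 held this run, the 3 printed above. Aligned end to end, the C130026I21Rik and A530032D15Rik promoters matched at 279 of 279 bases around 12 gap bases. A530032D15Rik and Sp140 matched at 270 of 271 bases, and C130026I21Rik and Sp140 at 257 of 261.

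The Sp110 (chr1:85598761-85599060, minus strand) and Sp100 (chr1:85649738-85650037, plus strand) promoters shared no such run with the others. In these, capitals mark a stretch of 15 bases that spans a pair of matches to the IRF site (AANNGAAA, here on the opposite strand), the letters recognised by interferon regulatory factors.
Sp110: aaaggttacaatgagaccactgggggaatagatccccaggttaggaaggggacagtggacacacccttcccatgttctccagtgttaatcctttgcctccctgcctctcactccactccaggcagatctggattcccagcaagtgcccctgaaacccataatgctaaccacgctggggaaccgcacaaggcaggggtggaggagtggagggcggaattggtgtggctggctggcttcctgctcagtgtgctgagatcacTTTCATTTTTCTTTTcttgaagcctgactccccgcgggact
Sp100: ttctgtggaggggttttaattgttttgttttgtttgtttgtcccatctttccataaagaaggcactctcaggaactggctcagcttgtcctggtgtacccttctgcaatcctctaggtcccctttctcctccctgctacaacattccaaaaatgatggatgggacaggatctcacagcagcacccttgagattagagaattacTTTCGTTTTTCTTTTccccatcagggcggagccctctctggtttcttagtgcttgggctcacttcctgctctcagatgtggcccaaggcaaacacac
RefSeq lists 2 starts for Sp110, and the other, not printed, held no match to this site. The stretch lay at positions 9 to 23 of Sp110 and -47 to -33 of Sp100, counted from the start as 0. This site occurs in 23.9% of all promoters of this length, on either strand. The promoters of C130026I21Rik, A530032D15Rik and Sp140 held no match to it, to the core of the longer interferon-stimulated response element (3.44% of all promoters) or to the STAT site TTCNNNGAA (8.30%). They held 2 GC boxes (GGGCGG, 35.7% of all promoters) each. The printed Sp110 and Sp100 promoters likewise held no match to the response element core or to TTCNNNGAA. These 2 promoters held 1 GC box each. These matches describe letters only, and binding was not measured.

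Near-identical copies bear on the counts as well as on the promoters. Of the 60-base windows in annotated C130026I21Rik transcripts, 16.4% also occurred in a transcript of one of the other genes named here (19.0% within the last 400 bases, the end that the assay reads). The shares were 26.4% in A530032D15Rik (21.1% of the last 400 bases), 15.2% in Sp140 (13.2%), 3.70% in Sp110 (8.45%) and 0% in Sp100 (0%). The levels of C130026I21Rik, A530032D15Rik, Sp140 and, less so, Sp110 are therefore uncertain to the extent that reads of one could be assigned to another or discarded. No Csprs sequence was among the transcript sequences used here, so the same check was not made.

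Barcodes without 1 clear hashtag were removed, as were those outside the limits on detected genes and mitochondrial counts. This left 1226 male and 7604 female cells. Cells per mouse ranged from 49 to 206 in males and from 245 to 1837 in females, with 330586 to 1108320 and 2861770 to 21892113 unique molecular identifiers (UMIs, counted RNA molecules) per mouse. Old cells held more UMIs each than young cells of the same pool. Mouse medians of UMIs per cell ran from 3805.5 to 4455.5 (young) and from 4489.5 to 8844 (old) among males. Among females they ran from 8398 to 9476.5 (young) and from 10106 to 15274.5 (old). All 6 classical monocyte markers were detected in each sex and age, with summed levels of 3766 to 3826 CPM in young females and 3980 to 4337 CPM in old females (CPM, UMIs per 1000000 UMIs of a mouse). Summed neutrophil markers ran from 471 to 2049 CPM (young) and from 174 to 879 CPM (old) among females, and from 257 to 6897 CPM (young) and from 212 to 11764 CPM (old) among males. Summed T or NK cell markers were 85.6 to 99.2 CPM in young and 76.6 to 245 CPM in old females. The part of these cells in the results below was not tested.

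Csprs was close to absent in young mice and present in every old mouse. In young females it measured 0.951, 0.463, 1.05, 0.457 and 0 CPM (mice 1 to 5, mean 0.584 ± 0.425, SD, n = 5). In old females it measured 10.9, 15.0, 5.11, 5.90 and 11.4 CPM (9.66 ± 4.12, SD, n = 5). The lowest old female was above the highest young female. Summed over mice, 448 UMIs in old females stood against 23 in young females, a ratio of 17.8 between the pooled levels (95% interval 11.7 to 28.3, which covers counting error only, as do all intervals here). In young males no Csprs UMI was counted in 700 cells, while old males measured 1.80, 6.08, 6.98, 4.36 and 15.1 CPM (6.87 ± 5.02, SD, n = 5). These male values rest on 2 to 5 UMIs per mouse. The pooled level of old males, 5.50 CPM from 18 UMIs, was 6.46 times the limit that a count of 0 allows in the pooled young males (3 UMIs, 0.852 CPM). This ratio leaves out the counting error of the old males, so it is not a lower bound.

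C130026I21Rik was higher in every old female than in any young female, from a higher starting level than Csprs. Young females measured 6.93, 6.01, 6.29, 4.34 and 5.46 CPM (5.81 ± 0.975, SD, n = 5). Old females measured 41.0, 18.3, 18.05, 27.2 and 28.9 CPM (26.7 ± 9.42, SD, n = 5), with old female 1 the highest. The pooled ratio was 4.95 (4.32 to 5.69). In males the groups overlapped: young males measured 1.09, 1.42, 2.93, 3.27 and 3.29 CPM, and old males 3.61, 3.04, 4.19, 4.36 and 18.1 CPM. The male ratio of 2.29 (0.935 to 6.12) rested on 17 UMIs against 8, and it was 1.65 without old male 5, the mouse at 18.1 CPM.

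Sp100, the member that gave the family its name, had overlapping levels in young and old mice of both sexes. Young females measured 202, 199, 203, 201 and 189 CPM (199 ± 5.55, SD, n = 5) and old females 176, 243, 206, 185 and 202 CPM (202 ± 25.8, SD, n = 5). The old mice spread around the young mice on both sides. The pooled ratio was 1.002 in females (0.974 to 1.03) and 0.918 in males (0.815 to 1.03), where young males averaged 172 ± 30.0 CPM and old males 167 ± 40.6 CPM (SD, n = 5 each).

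Sp110 was slightly higher in old females. Young females measured 90.5, 90.8, 86.3, 97.9 and 94.7 CPM, and old females 114, 111, 100.2, 99.3 and 104 CPM. The groups did not overlap, although the difference was small beside those of Csprs and C130026I21Rik (pooled ratio 1.10, 1.06 to 1.15). Males overlapped widely, with 98.3, 104, 124, 108 and 97.1 CPM in young and 115, 166, 131, 71.9 and 160.3 CPM in old mice.

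Sp140 was nearly constant among young females, at 65.1, 65.8, 67.8, 65.8 and 66.4 CPM. Old females measured 108, 77.4, 72.9, 77.1 and 67.2 CPM, so the lowest old female lay within the young range and old female 1 stood apart. The fitted log2 fold change was 0.29 (SE 0.10) with all females and 0.16 without old female 1. Old female 1 was also the highest of the 10 females for C130026I21Rik, Sp110, A530032D15Rik and A530040E14Rik. For Csprs, however, it was below old female 2 and old female 5, and for Sp100 it was the lowest of the 10. In males Sp140 measured 47.0, 32.7, 35.1, 26.2 and 31.3 CPM in young and 40.6, 88.2, 43.3, 26.1 and 60.5 CPM in old mice, with overlap.

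**Figure D1:**
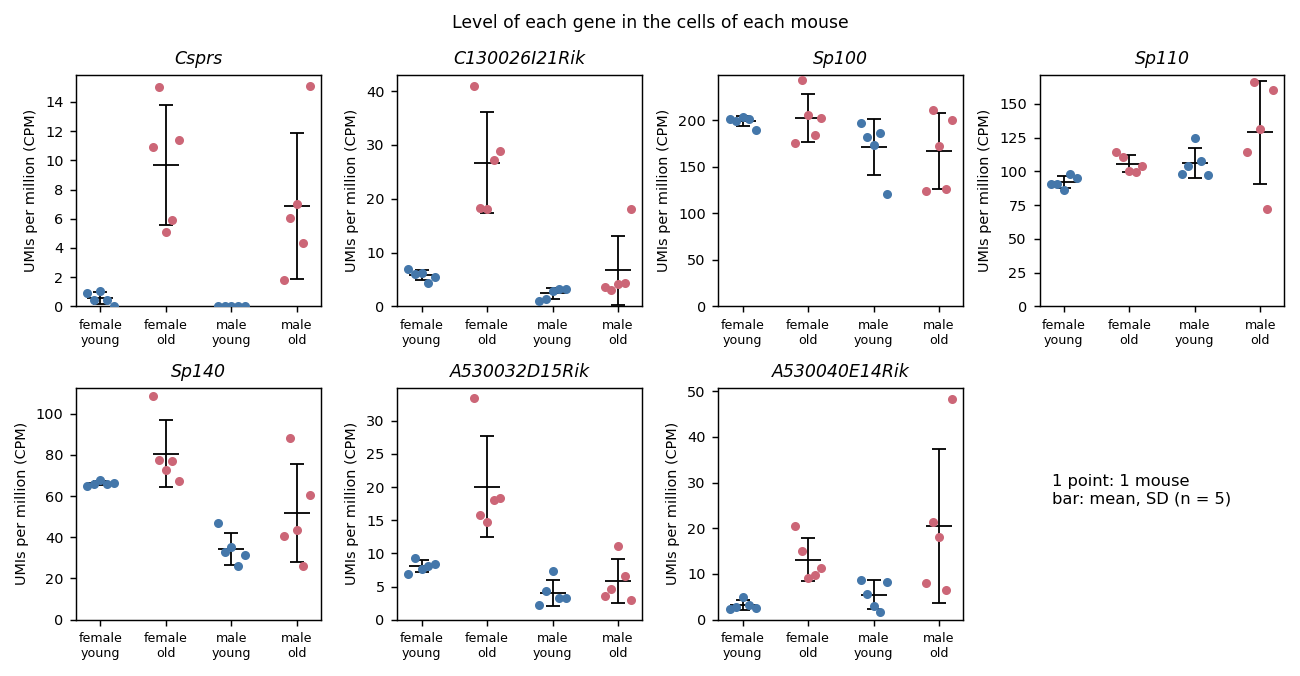
Level of the 5 members and of A530032D15Rik and A530040E14Rik in CPM ( vertical axis, starting at 0) by sex and age, with 1 point per mouse and bars for the mean and SD (n = 5). Csprs and C130026I21Rik of old females lie above all young females, while the Sp100 points of young and old mice overlap in both sexes.

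Of the 10386 genes that passed the filter on low counts in females, 3.61% had all old mice above all young mice and 3.58% all old mice below. Of the 5 members, all of which passed, 3 had their old mice above (Csprs, C130026I21Rik and Sp110) and 0 below. In males the shares were 0.884% and 1.24% of 5655 genes. There, 3 of 5 members passed the filter and 0 of these were separated by age, while Csprs and C130026I21Rik were too low to enter. By edgeR's quasi-likelihood test, 4.73% of genes in females and 0% in males had an adjusted p under 0.05. The unadjusted p in edgeR was under 0.05 for 2155 genes in females and 624 in males, and DESeq2 called 22 male genes. The fitted log2 fold changes in females were 4.21 (SE 0.45) for Csprs, 2.29 (SE 0.24) for C130026I21Rik, 0.03 (SE 0.07) for Sp100, 0.19 (SE 0.05) for Sp110 and 0.29 (SE 0.10) for Sp140. These repeat the contrast by which the genes were picked, so nothing is read from the counts of members.

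Whether the effect of age differed between the sexes was fitted with an interaction term over all 20 mice. The members were picked on old against young in each pool, and this term is the difference of those same effects. It is therefore not independent of the picking, and no likeness of the sexes is read from it. None of the 5 members passed (edgeR adjusted p at least 0.988), where 0.0225% of 8885 genes did. The female effect minus the male effect was 1.10 (SE 1.10) on the log2 scale for C130026I21Rik, 0.11 (SE 0.17) for Sp100, -0.07 (SE 0.16) for Sp110 and -0.23 (SE 0.30) for Sp140. Csprs has no usable estimate because young males were at 0. With 2 to 6 UMIs per old male for the rarer genes, a sex difference of several-fold was not detectable for Csprs and C130026I21Rik.

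Of the non-members that overlap C130026I21Rik, A530032D15Rik and A530040E14Rik could be tested against age, and both rose in old females. A further one, Gm10553 (85100164 to 85100535, plus strand), had 0 UMIs in both sexes. A530032D15Rik, an uncharacterised protein-coding gene of the family, measured 6.93, 9.25, 7.69, 8.09 and 8.42 CPM in young females and 33.4, 15.8, 14.7, 18.05 and 18.4 CPM in old females. Its log2 fold change was 1.30 (SE 0.21, edgeR adjusted p 0.00326). It was 1.05 without old female 1, the highest mouse. A530040E14Rik, the antisense transcript, measured 2.44, 2.78, 4.89, 3.29 and 2.62 CPM in young and 20.5, 15.0, 9.02, 9.88 and 11.2 CPM in old females, a log2 fold change of 2.07 (SE 0.25, edgeR adjusted p 0.000326). Neither passed the filter in males, where A530040E14Rik measured 8.74, 5.69, 2.93, 1.64 and 8.23 CPM in young and 8.12, 21.3, 18.2, 6.54 and 48.4 CPM in old mice. Since A530032D15Rik shares sequence and span with C130026I21Rik, its rise is not independent of that gene's counts.

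The genes called in females near the members were those that overlap C130026I21Rik. Within 84492690 to 86209998 of chromosome 1 the files held 28 genes beside the 4 members, and 9 of these were tested in females. Of the 9, 2 passed, namely A530032D15Rik and A530040E14Rik, where 4.73% of all tested genes did, and the median log2 fold change of the 9 was 0.05. In males 5 were tested and edgeR called 0. On the scaffold that holds Csprs there were 6 other genes, of which 0 entered the test.

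**Figure D2:**
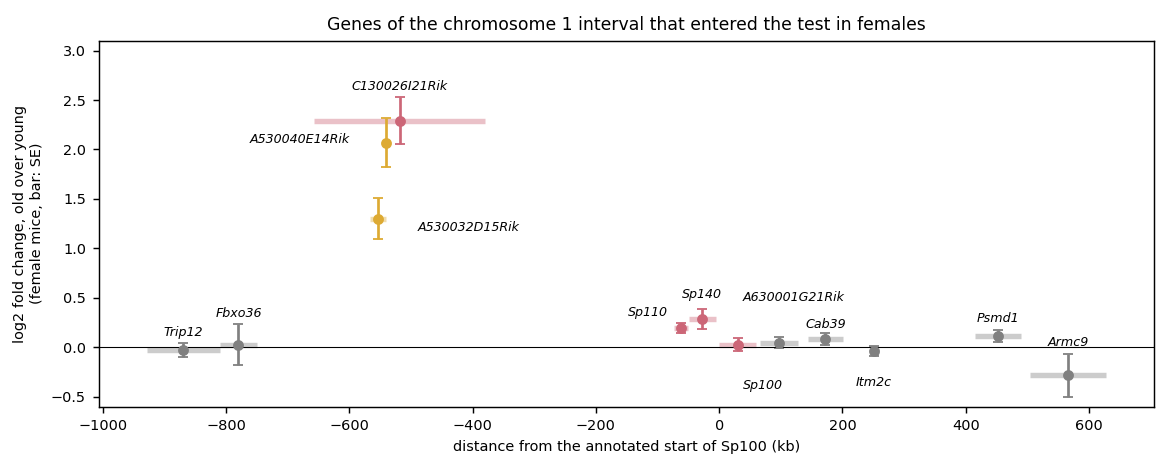
Log2 fold change of old over young in female mice (vertical axis, bars for the SE) for each tested gene of the chromosome 1 interval, placed by distance from the annotated start of Sp100 in kb (horizontal axis, with gene spans as pale lines). Members are red, other genes with an adjusted p under 0.05 yellow and the rest grey, and the coloured points above 1 are C130026I21Rik, A530032D15Rik and A530040E14Rik.

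At the level of single cells, more old cells held the rare transcripts. Detection per cell was part of the rule that picked the members, so these shares are a description and no separate support. In females, 22 of 3974 young cells and 387 of 3630 old cells held a Csprs UMI, or 0.660% ± 0.468 and 12.7% ± 5.73 per mouse (SD, n = 5 each). Old cells held more UMIs, so each cell was also thinned to 2000 UMIs, leaving out 15 young and 1 old female cells. The shares were then 0.104% ± 0.177 and 2.87% ± 1.43, with 0, 0, 0.408, 0.110 and 0% in young and 4.52, 3.92, 1.16, 1.68 and 3.05% in old females, again without overlap. In males 0 of 700 young cells, which at this depth allows up to 0.429% of cells with a UMI and does not bound the share that express the gene, and 17 of 526 old cells held Csprs. Thinned male shares were 0% and 1.27% ± 1.62 (SD, n = 5 each), with 32 young and 26 old cells left out. Of the old males, 2 were then at 0%, so the male groups overlapped.

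C130026I21Rik was found in 5.73% ± 1.13 of young and 22.1% ± 7.71 of old female cells (SD, n = 5 each). After thinning the shares were 1.46% ± 0.524 and 5.90% ± 2.17, and the lowest old female (3.38%) was above the highest young female (2.04%). The difference in the shares of Sp100, by contrast, was gone after thinning: 83.2% of young and 89.6% of old female cells held Sp100 as counted, against 34.8% and 34.9% thinned. For Sp110 the thinned female means were 16.9% and 19.6%, and for Sp140 14.4% and 16.5%. Young and old females overlapped for both after thinning. The highest young and lowest old shares were 19.7% and 16.8% for Sp110, and 15.3% and 13.4% for Sp140. No cell type known to lack Csprs was at hand to measure the background of free RNA in droplets.

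**Figure D3:**
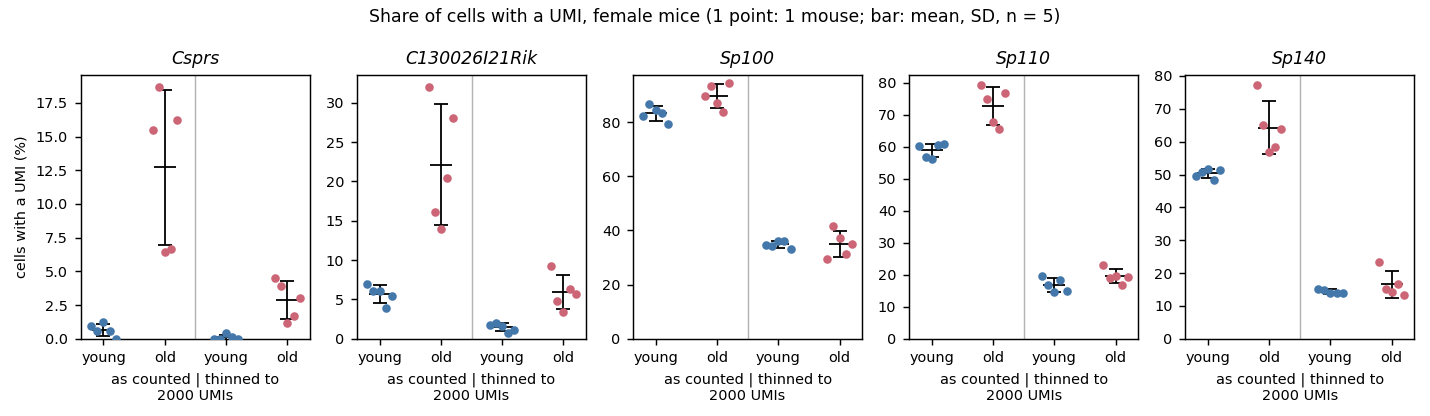
Share of cells with at least 1 UMI (percent, vertical axis, starting at 0) for each member in young and old female mice, as counted (left of the line) and after thinning every cell to 2000 UMIs (right), with 1 point per mouse and bars for the mean and SD (n = 5). The old and young points stay apart after thinning for Csprs and C130026I21Rik and come together for Sp100.

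In most Csprs-positive cells the transcript was counted as a single molecule. Csprs-positive cells of old females held 1.15 Csprs UMIs on average, 88.1% of them a single UMI, and no cell held more than 4. Their level was 108 ± 10.4 CPM in old females (SD, n = 5) and 130 ± 25.1 in the 2 young females with enough positive cells. C130026I21Rik-positive cells held 1.80 ± 0.167 UMIs in old and 1.21 ± 0.0496 in young females (SD, n = 5 each), and up to 9 in 1 cell. Scaled to each cell's depth, however, its level was 143 ± 13.4 CPM in old and 128 ± 3.30 in young positive cells. A cell must hold 1 UMI to count as positive, which sets these levels in part.

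Whether the members occur in the same cells was tested within mice, by comparing cells positive for both with the number expected from their shares at matched depth. Of 18 tests of a pair in one sex, 5 passed an exact two-sided sign-flip permutation test over mice after Benjamini-Hochberg adjustment. Tests with 5 mice or fewer could not pass, since the exact permutation test then gives no p under 0.0625. These were Csprs with Sp100, Sp110 and Sp140 and C130026I21Rik with Sp110 in males, and Csprs with C130026I21Rik in females. Sp100 with Sp110 passed in both sexes: 4372 cells were seen and 4278 expected in females, and 325 seen and 303 expected in males (above expectation in 10 of 10 mice of each sex, exact permutation test, adjusted p 0.0117 in each). The Sp110 with Sp140 pair was seen in 2933 female cells with 2852 expected (10 of 10 mice, exact permutation test, adjusted p 0.0117). Csprs met Sp110 in 309 female cells with 290 expected (9 of 9 mice, exact permutation test, adjusted p 0.0176) and Sp140 in 271 with 255 expected (8 of 9 mice, adjusted p 0.0422). These excesses were small, the largest of the 5 being a ratio of 1.07. The 9 mice of the Csprs tests include young females with only 3 to 10 Csprs UMIs each. Every mouse weighs alike in the test, and the 5 old females alone could not have passed. Csprs and C130026I21Rik met in 108 cells of the 5 old females with 86.7 expected, above expectation in 5 of 5 mice, where 5 mice cannot give an exact permutation p under 0.0625 (adjusted p 0.141). With mice assigned by HTODemux instead, 1 of the 5 pairs passed. Csprs with Sp140 in females passed in 13 alternative runs and did not pass in 9.

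Clusters of the integrated cells give the members' levels by monocyte state, again as a description, since the clusters were built from the same cells. Csprs in old females was highest in the small interferon-stimulated-like cluster, with 15 of 45 cells positive (33.3%, exact 95% interval 20.001 to 48.950%) and 49.9 CPM pooled. It was 21.3 ± 13.2 CPM in DCMo-like cells and 18.2 ± 6.68 CPM in mature Ly6C-high-like cells (SD, n = 5 mice each). DCMo is the paper's term for monocytes that give rise to dendritic cells. The DCMo-like cluster was led by Apoe, Tppp3 and MHC-II genes, with Ace, Pltp and Gngt2 also among its leading genes. Its name rests on 4 of 6 DCMo markers, all of them MHC-II genes or Cd74. The classical monocyte list also had 4 markers raised there. Whether these cells are precursors of dendritic cells was not tested. Csprs was lowest in neutrophil-like NeuMo-like cells, at 0.998 ± 0.651 CPM with 9 of 331 cells positive (2.72%, exact 95% interval 1.25 to 5.10%), although these were the deepest cells with a median of 26857 UMIs in females. The clusters named as cycling lay between, at 6.93 ± 4.29 CPM for G2/M-like and 5.68 ± 4.30 for S-like cells. An unnamed cluster with Ccnb2, Cenpa and Cdc20 among its leading genes was higher, at 20.2 ± 11.3 CPM with 28 of 199 cells positive (14.1%). In old males 6 of the 18 Csprs UMIs came from 15 interferon-stimulated-like cells, 5 of them positive. The exact intervals of these clusters treat cells as independent and leave out the spread between mice. Only 2 old females had at least 10 interferon-stimulated-like cells.

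Sp100 and Sp140 were likewise highest in interferon-stimulated-like and lowest in NeuMo-like cells of old females among the 7 clusters plotted. C130026I21Rik was highest and lowest in the same clusters, with a small gap at the top. Pooled over old females it was 44.9 CPM in interferon-stimulated-like and 40.1 CPM in DCMo-like cells. Its share of positive cells was 22.2% and 19.2% there, against 24.7% in cycling G2/M-like cells. The last were deeper, with a female median of 17866 UMIs against 7815 and 7201, and these shares were not thinned. In old males the 15 interferon-stimulated-like cells held 0 UMIs of it, but all old male cells together held only 17. C130026I21Rik in old females was 56.4 ± 8.94 CPM in interferon-stimulated-like cells (SD, n = 2 mice with at least 10 such cells), 41.9 ± 7.84 in DCMo-like, 38.9 ± 21.5 in mature Ly6C-high-like and 11.97 ± 7.60 in NeuMo-like cells (n = 5). In each of these 4 clusters it was lower in young females, at 11.3, 11.2, 10.8 and 2.42 CPM. Sp100 was 670 ± 30.3 CPM in interferon-stimulated-like and 81.0 CPM in NeuMo-like cells of old females, and Sp140 256 ± 51.2 and 44.1 CPM. Unlike C130026I21Rik, these stood at like levels in young females: 590 ± 36.5 and 77.0 CPM for Sp100 and 264 ± 44.04 and 40.9 CPM for Sp140 (n = 3 young mice for the interferon-stimulated-like values). Sp110 was 350 ± 27.5 CPM in old and 313 ± 103 in young interferon-stimulated-like cells, against 78.0 and 80.2 CPM in NeuMo-like cells. Few mice had enough interferon-stimulated-like cells, which limits these values.

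**Figure D4:**
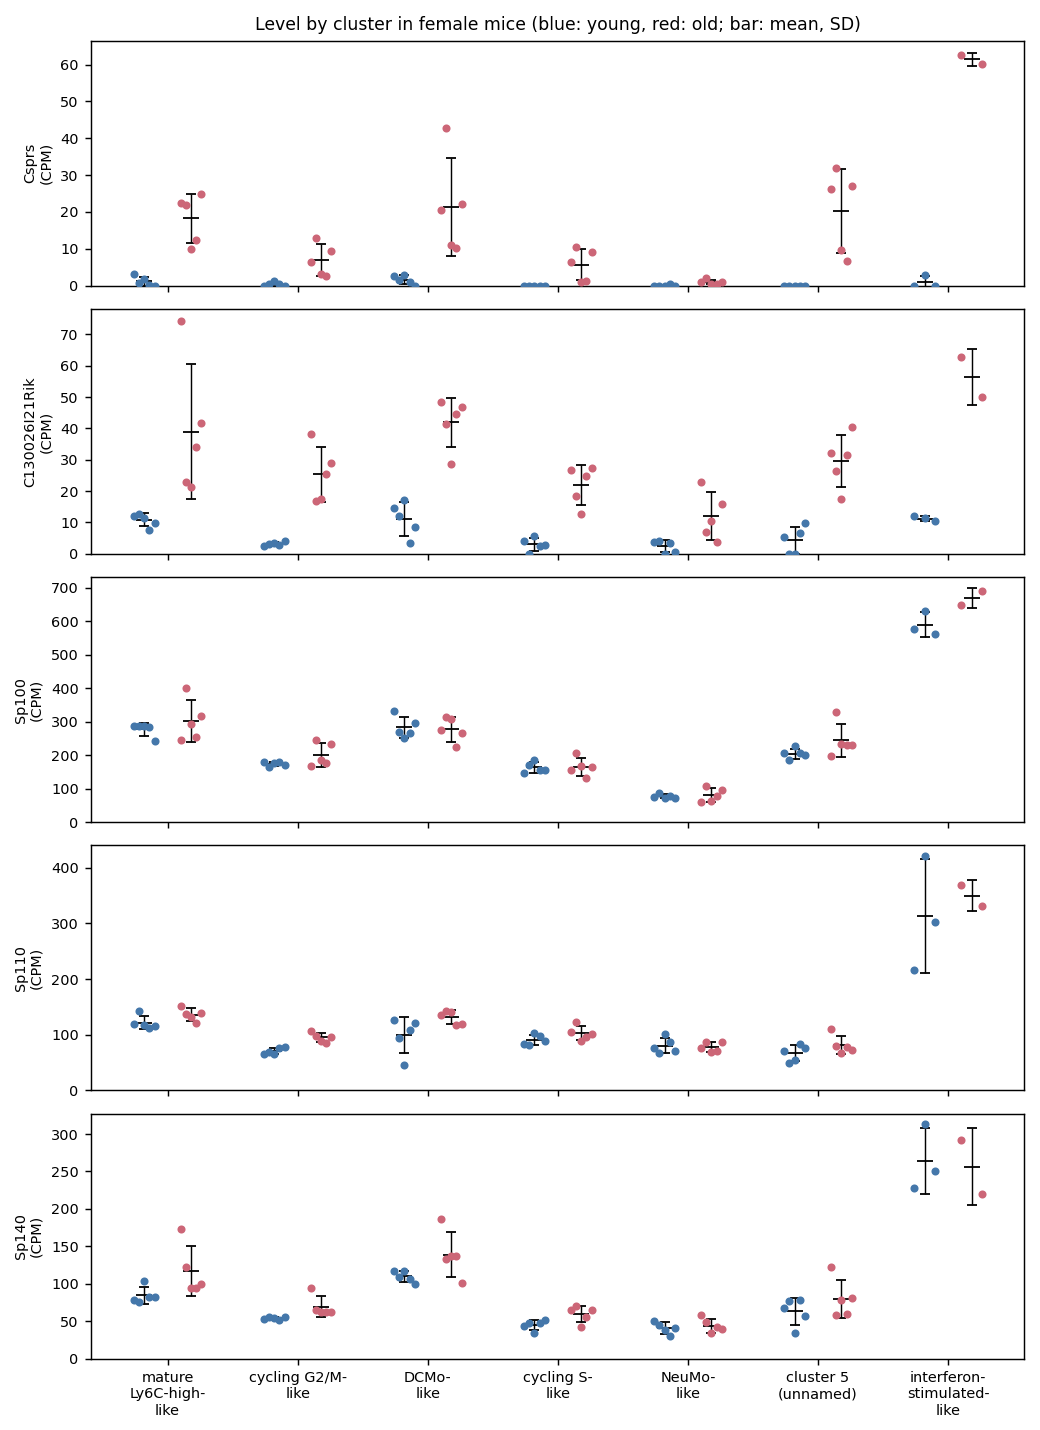
Level of each member (CPM, vertical axes starting at 0) in 7 clusters of female cells, with young mice in blue and old mice in red, 1 point per mouse with at least 10 cells in the cluster and bars for the mean and SD. Csprs in old mice is near 0 in NeuMo-like cells and highest in interferon-stimulated-like cells, and Sp100 and Sp140 are lowest and highest in the same clusters at both ages.

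The female pool also carried 6 surface antibodies, so RNA levels could be set against protein on the same cells. Within each of 10 females, the tertile of cells with the highest value of an antibody was compared with the tertile with the lowest, and 12 of 30 comparisons of member and antibody passed an exact two-sided sign-flip permutation test after Benjamini-Hochberg adjustment. All 5 members were higher in the CD11b-high tertile. C130026I21Rik measured 23.5 against 11.6 CPM (log2 ratio 0.71, higher in 10 of 10 mice, exact permutation test, adjusted p 0.00732), Sp100 259 against 156 CPM and Sp140 99.6 against 54.2 CPM (adjusted p 0.00732 each in the same exact test). Csprs was higher by 0.54 on the log2 scale in 8 of 10 mice (exact permutation test, adjusted p 0.0293). This Csprs comparison passed in 6 alternative runs and did not pass in 8.

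Csprs, Sp100, Sp110 and Sp140 were lower in the Ly6C-high tertile, with Csprs at 3.55 against 7.86 CPM (log2 ratio -0.47, higher in 0 of 10 mice, exact permutation test, adjusted p 0.0107). Of these mice, young female 5 held 0 Csprs UMIs and could not be higher or lower, and the other young females held 3 to 10. C130026I21Rik, Sp100 and Sp140 were lower in the CD115-high tertile, by log2 ratios of -0.38, -0.40 and -0.40. For Flt3, CD11c and MHC-II, 0 of 15 comparisons passed (0 had an unadjusted p under 0.05 in the exact permutation test, and mean log2 ratios ran from -0.05 to 0.19). For the 5 old females alone, which hold most Csprs UMIs, ratios are given without a test. Csprs was higher in the CD11c-high tertile in 5 of 5 mice (mean log2 ratio 0.23 ± 0.11, SD). In the MHC-II-high tertile Csprs was higher in 4 of 5 (0.37 ± 0.27, SD), and in the Flt3-high tertile in 1 of 5 (-0.02). C130026I21Rik was higher in the CD11c-high tertile in 1 of 5 (-0.13) and in the MHC-II-high tertile in 2 of 5 (-0.02). These tertiles differed in depth, with medians of 8262 UMIs per cell in the CD11b-high and 17931 in the CD11b-low tertile. When cells were ranked within 5 bins of depth, 4 comparisons remained: Csprs with Ly6C (-0.29, higher in 0 of 10 mice), Sp100 with CD115 (-0.14), Sp100 with CD11b (0.20) and Sp140 with CD11b (0.33), each with an adjusted p of 0.0293 in the exact permutation test. C130026I21Rik with CD11b was then 0.40 (9 of 10 mice, adjusted p 0.117 in the same exact test). Csprs in these bins was -0.01 with CD11c and 0.16 with MHC-II over the 10 females, and neither passed. CD11b, CD115 and Ly6C were also markers of the sort.

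**Figure D5:**
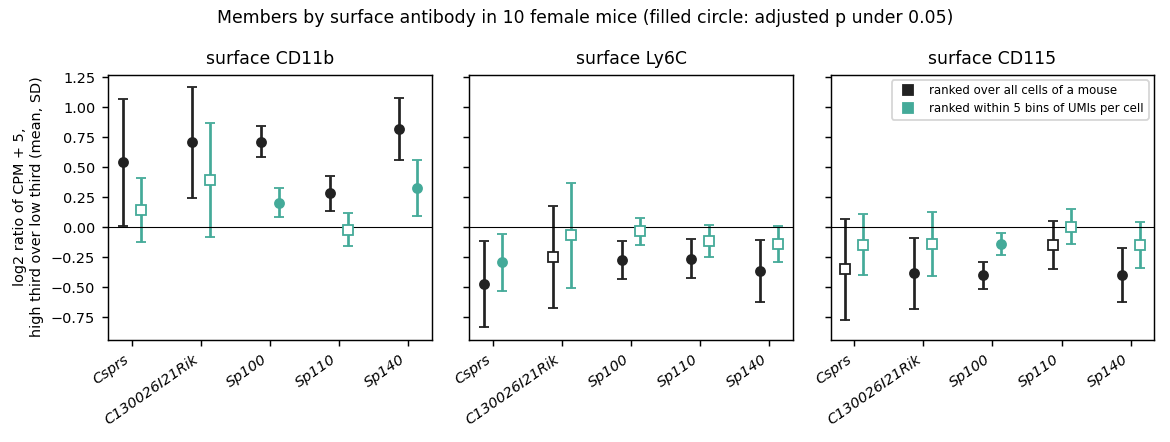
Log2 ratio of each member's level between the tertile of cells with the highest and the tertile with the lowest surface antibody (vertical axis, CPM + 5, mean and SD over 10 female mice), ranked over all cells of a mouse (black) or within 5 bins of UMIs per cell (green). Filled circles have an adjusted p under 0.05, which for Csprs and Ly6C holds in both rankings.

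Gene lists around the family were compared with the background, in which 2.4% of tested genes were called up in old females and 2.33% down. Of the 9 genes listed as related to Sp100, 2 were tested in females and both rose (the overlapping A530032D15Rik and A530040E14Rik). A list of 17 tested genes joined those of PML nuclear bodies, the structures that contain Sp100, with those of SP100 partners. Of these, edgeR called 0 up and 1 down, the transcription factor Ets1 (log2 fold change -1.31, SE 0.35, adjusted p 0.0430). Ets1 was low, at edgeR-scaled means of 1.18 CPM in old and 2.80 CPM in young females. The median log2 fold change of the 17 was 0.01 beside -0.0044 over all genes. Of 14 tested genes with a bromodomain, the acetyl-lysine reader that Sp140 carries, edgeR called 0 (unadjusted p under 0.05 in 0, and 0 called by DESeq2). Of 3 tested genes with the DNA-binding SAND domain of the family, edgeR called 0 (likewise 0 and 0). Of 4 tested genes of the interferon axis linked to Sp140, edgeR called Ifnar2, a subunit of the type I interferon receptor, down (-0.16, SE 0.04, adjusted p 0.0281). The inflammatory cytokine gene Il1b, named after its values were seen, lay the other way without passing (1.23, SE 0.34, edgeR adjusted p 0.0518). In this list the unadjusted p was under 0.05 for 3 genes, and 2 were called by DESeq2.

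Of 28 tested type I interferon target genes, edgeR called 5 up and 0 down in old females. Log2 fold changes of the 28 ran from -0.43 to 1.33 (median 0.17), with 19 above 0. The 5 called up included the nucleic acid sensor Zbp1 (0.56, SE 0.11, edgeR adjusted p 0.00785). The RNA-sensing synthetases Oas2 (0.73, SE 0.16, edgeR adjusted p 0.0208) and Oas3 (0.72, SE 0.17, edgeR adjusted p 0.0240) were also called. So were Oasl2 and Ifi44, a pair named after their values were seen. Of 16 tested interferon-gamma target genes, 14 had a log2 fold change above 0 (median 0.58). In edgeR 15 had an unadjusted p under 0.05, as did 2155 of all 10386 genes tested in females. Only 3 of the 16 passed after adjustment over all genes. The 2 that rose were the MHC class II transactivator Ciita (1.86, SE 0.38, edgeR adjusted p 0.0122) and the MHC class I transactivator Nlrc5 (0.61, SE 0.16, adjusted p 0.0451). The gene that fell was the monocyte and dendritic cell factor Irf8 (-0.18, SE 0.05, adjusted p 0.04996). In males edgeR called 0 genes in any of these lists, and the median log2 fold changes were 0.36 over 14 type I and 0.94 over 5 interferon-gamma targets beside 0.01 over all genes. The unadjusted p was under 0.05 for 1 male type I target and for 3 of the interferon-gamma targets, and DESeq2 called 0 of either list.

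The genes whose pattern across mice was most like Csprs were found by correlating log2 levels of 5649 genes over 20 mice, centred by sex, as a description. Only genes tested in both sexes were ranked, which leaves out Csprs, C130026I21Rik, A530032D15Rik and A530040E14Rik. Centred by sex alone, the values also hold the difference between old and young mice by which the members were picked. Apobec3, a cytidine deaminase that restrains retroviruses, was closest (r = 0.91), and Slirp (0.85), Tceb2 (0.82) and Atp5o (0.82) were also among the 5 closest. For C130026I21Rik the closest of the ranked genes were the intermediate filament gene Vim (0.76), Apobec3 (0.76), Naa10 (0.75), Commd3 (0.73) and the class II chaperone H2-DMb1 (0.73). Outside this ranking, Csprs correlated at 0.85 with A530040E14Rik and at 0.81 with C130026I21Rik. Centred by sex and age, which leaves the differences among mice of one group, the value for Csprs and C130026I21Rik was 0.49. Csprs was then closest to Rmi2 (0.76), Atp5o (0.74), Safb (0.72), Gm10116 (0.71) and Lgals3bp (0.70), and its correlation with the log2 of a mouse's total UMIs was -0.62. C130026I21Rik was closest to Tmem70 (0.83), Ndufv1 (0.81), Rad17 (0.81), Skiv2l2 (0.79) and Dhx16 (0.77), with a correlation of -0.49 with total UMIs. The mice share a pool within each sex, and their depth varies, so these values describe the 20 mice only.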

How the data were processed

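Sorted bone marrow Ly6C-hi monocytes of 5 mice per age and sex were profiled by droplet scRNAseq in 2 pools, male and female, with 1 hashtag per mouse. The deposited values are raw UMI counts per gene, hashtag and antibody, which the authors made with Cell Ranger (4.0.0 per the labels, with STAR 2.5.1; the deposited file headers name 7.0.0 for males and 3.1.0 for females) on the mm10 genome, without normalization. The female files also hold 6 surface antibodies.

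A cell was kept where its leading hashtag had at least 10 counts and 3 times the second, with over 200 genes and under 5% mitochondrial counts. This left 1226 of 1227 male and 7604 of 10433 female barcodes, and the pools shared 0 barcodes. The margin was meant to remove doublets of different mice, and how many remain was not tested. Doublets within a mouse were not called and remain. HTODemux kept fewer cells as singlets: 350 old and 476 young in males, against 526 and 700 with the margin. In females HTODemux kept 3009 old and 3632 young cells, against 3630 and 3974. Counts were summed per mouse and fitted in R 4.3.3 with edgeR 4.0.16 (quasi-likelihood test, TMM scaling, its default filter on low counts, Benjamini-Hochberg adjustment over all genes tested, threshold 0.05). DESeq2 1.42.0, no filter, library sizes only, HTODemux or no hashtag margin, and leaving out each mouse were the alternatives. CPM are counts per 1000000 UMIs of a mouse, with none of these scalings. The mouse is the replicate in every test. Clusters came from Seurat 5.3.0 (SCTransform, integration of both pools, 20 components, resolution 0.3) and were called "-like" by fixed marker lists. The fits were checked on simulated counts with known changes. Surface antibody values are centred log-ratios over the 6 antibodies of a cell, so a rise in one lowers the others.

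The genes named are the 5 members, the overlapping neighbours, the genes of the lists that passed the test with the lowest adjusted p, and the 5 genes most like each rising member, except a gene that is not reported here. The members and lists were chosen with earlier results of these data known.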

Additional observations from a re-analysis of the deposited data

Results flagged for a closer look

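Among 27 groups of 5 mice, 1 mouse stood apart from the other 4 in 3 cases, where chance flags about 1 group in 20. Old female 1 measured 108 CPM for Sp140, with the next old female at 77.4 CPM. The same mouse measured 33.4 CPM for A530032D15Rik, with the next at 18.4 CPM. Old male 5 measured 18.1 CPM for C130026I21Rik from 6 UMIs, with the next old male at 4.36 CPM from 2 UMIs.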

How the results depend on the processing

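In females the number of genes called between old and young mice was 491, and leaving out 1 mouse gave 232 (without young female 5) to 781 (without old female 4). In males it was 0, but 22 by DESeq2, 98 with no filter on low counts, and 0 to 38 leaving out 1 mouse (38 without old male 1, 24 without old male 4). The interaction called 2 genes, 1 with HTODemux singlets, 1 with no hashtag margin and 0 to 3 leaving out 1 mouse. With no margin the female log2 fold changes were 2.73 for Csprs and 1.82 for C130026I21Rik; young females then held 1.45 CPM of Csprs against 0.485 CPM with the margin. Thinning moved the old minus young shares of positive cells, in percentage points, to 2.76 (Csprs), 4.43 (C130026I21Rik), 0.0373 (Sp100), 2.70 (Sp110) and 2.19 (Sp140) in females, and to 1.27 (Csprs), -2.73 (Sp100), -0.0369 (Sp110) and 4.74 (Sp140) in males, where the 2 negative values turned direction. Of the 5 pairs found together, 1 passed with HTODemux, and leaving out 1 mouse gave 4 to 6. Of 12 antibody comparisons 4 remained in depth bins, an alternative added after seeing the data, where Sp110 turned to -0.0205 (CD11b) and 0.00699 (CD115), and leaving out 1 mouse gave 11 to 12. The co-detection of C130026I21Rik with Sp110 in females, uncalled, ran from -0.00524 to 0.0244. The cause of these changes was not tested. In females A530032D15Rik and A530040E14Rik kept an adjusted p of at most 0.0150 under every alternative run (edgeR or DESeq2); in males they were fitted only with no filter, with an edgeR adjusted p of 0.749 and 0.0492. No paired analysis was possible because mouse numbers only name mice within an age. Male depth limits Csprs and C130026I21Rik to at most 6 UMIs per mouse.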

Other observations

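A cluster of 33 cells, left unnamed, was led by the pituitary hormone genes Pomc, Gh and Prl. Of these cells, 32 came from young female 4, and they held 1 Csprs UMI.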
